A study of Mus musculus with 6 samples.

Results

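The cytosolic ribosomal protein genes were 85 of the 24413 gene rows, taken by symbol: Rpl or Rps followed by a number, with paralog suffixes, together with Rpsa, Rplp0, Rplp1 and Rplp2. They comprised 52 genes of the large subunit and 33 of the small subunit. Transcripts were measured by RNA-seq in W-EGFP cells, which are interstitial cells from the testis of FLE-EGFP mice at E16.5, in which an enhancer of Nr5a1 that is active in fetal Leydig cells drives EGFP. Per the labels, each sample held 10000 cells and was kept for 1 hour with 0.5 µM SAG, an agonist of the Hedgehog transducer Smoothened, or with its vehicle DMSO, in 3 libraries per group. The names of all 6 columns carry "siCnt", which the labels do not explain. Whether both groups had also received a control siRNA is not stated. Separate cultures or animals are not stated for the libraries, so the replicate spread behind every p-value may be technical only.

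Each ribosome carries 1 copy of nearly every one of these proteins, and the cell makes them in matched amounts. Their mRNAs are abundant and usually long-lived. Most begin with a run of pyrimidines, the 5′ terminal oligopyrimidine or TOP motif, through which mTOR and the binding protein Larp1 control translation. The measurements here are transcript levels and do not read translation.

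The windows around the annotated RefSeq transcription start (GRCm38.p6) show which of these genes hold a pyrimidine run near it. Such a run need not open at the first base of the mRNA, as a TOP motif does, so it does not give TOP status. For a gene with several annotated starts the longest run was counted. Each window has the 10 bases before the start and the first 20 bases of the transcript. Capitals mark the longest run of at least 7 pyrimidines that opens with C. The genes shown are those on which the results below turn: 6 that were lower with SAG (3 with a run and 3 without), Rpl15, which was higher, and the paralog Rpl22l1.

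Rpl39: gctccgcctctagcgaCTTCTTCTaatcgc
Rps27: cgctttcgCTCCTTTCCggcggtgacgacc
Rpl38: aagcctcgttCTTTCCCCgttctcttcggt
Rps28: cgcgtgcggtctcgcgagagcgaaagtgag
Rpl24: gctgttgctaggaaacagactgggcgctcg
Rpl36a: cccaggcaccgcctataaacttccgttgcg
Rpl15: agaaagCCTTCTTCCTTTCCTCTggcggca
Rpl22l1: gcgcaagcccgttCTCTTCCCacggctgca

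In the order shown, the windows lie at chrX:37085203-37085232 (minus strand), chr3:90213629-90213658 (minus), chr11:114668570-114668599 (plus), chr17:33824543-33824572 (minus), chr16:55966265-55966294 (plus), chrX:134585644-134585673 (plus), chr14:18270967-18270996 (minus) and chr3:28805498-28805527 (plus). The RefSeq promoter table held 64 of the 85 genes, 61 of them among the tested genes. A run was present in 29 of these 61 (47.5%), against 17.1% of all 9455 tested genes with a window. It was present in 10 of the 18 genes called lower that had a window and in 19 of the other 43. The motif CGGAAG, the core that ETS-family factors recognise, was searched on both strands from 250 bases before to 50 bases after the start. It was found in 42 of the 61 genes (68.9%), against 35.3% of all tested genes; on the other strand it reads CTTCCG, which can overlap a pyrimidine run. Genes without an entry included Rps4l, Rps14, Rps20, Rps27a, Rps29, Rpl3, Rpl7, Rpl8, Rpl17, Rpl21, Rpl23a, Rpl29, Rpl30, Rpl32, Rpl36 and Rplp1.

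Depth ranged from 18486396 to 25491259 reads with DMSO and from 7694479 to 8804335 with SAG. Reads of synthetic spike-in RNAs appeared only in SAG libraries. The groups did not overlap in depth, so a difference between SAG and DMSO cannot be told apart from one of library preparation or sequencing. SAG replicate 3 stood apart from the other SAG libraries on the second principal component (20.8% of the variance), and Rn45s, which encodes ribosomal RNA, took 1.67% of its reads but only 0.326% to 0.360% elsewhere. All 7 interstitial markers, Nr5a1 and EGFP among them, were detected, with a summed signal of 1418 to 1530 in DMSO and 1693 to 2065 in SAG. Of these 7, 4 were called higher with SAG and 0 lower (limma, Benjamini-Hochberg adjusted p under 0.05), beside 12.9% and 16.6% of all tested genes. Without SAG replicate 3, 5 were called higher and 2 lower, beside 19.7% and 27.0%. Of 6 germ cell markers 4 had no read in any library, and the sums of the germ, erythroid and macrophage markers stayed at or below 3.30. Sertoli markers summed to 31.0 to 38.1 in DMSO and 29.9 to 31.2 in SAG, and endothelial markers to 28.5 to 34.9 and 32.8 to 47.7. The 5 fetal Leydig markers summed to 32.3 to 33.3 in DMSO and from 19.0 to 116 in SAG, with the highest value in SAG replicate 3; Insl3 and Cyp17a1 were near 0 throughout. In that list Hsd3b1 was called higher (0, 0.370 and 0.226 in DMSO and 3.73, 2.01 and 30.8 in SAG; limma, Benjamini-Hochberg adjusted p = 0.019). Star had 23.9, 25.0 and 24.3 in DMSO and 11.97, 11.2 and 50.7 in SAG and was called lower without SAG replicate 3. In bulk samples, fewer cells of a type and less RNA per cell cannot be told apart.

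As a family the ribosomal protein genes took a like share of the reads in both groups, while in the scaled signal most members were lower with SAG. They took 3.99%, 3.83% and 3.85% of the reads in DMSO replicates 1 to 3 and 3.92%, 3.66% and 4.08% in SAG replicates 1 to 3, which is 3.89% ± 0.0875 against 3.89% ± 0.213 (SD, n = 3). The groups overlapped. The deposited signal, which is CPM divided by a scaling factor for each library, summed to 40840 ± 1094 over the family in DMSO and 37034 ± 3121 in SAG. Of the 85 genes, 82 passed the filter of a mean signal of at least 1. They had at least 290 reads in every library.

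Of these 82 genes, 24 were lower with SAG and 2 were higher (limma, Benjamini-Hochberg adjusted p under 0.05 over 12550 genes). Over all tested genes, 16.6% were called lower and 12.9% higher. In 42 of the 82, every SAG library lay below every DMSO library, and in 6 every SAG library lay above; over all tested genes these shares were 26.8% and 21.2%. The median log2 fold change was -0.21, against -0.03 over all tested genes. It was below 0 in 63 of the 82 genes (76.8%), against 52.9% of all tested genes. In 13 of the 82 genes SAG replicates 1 and 2 were below every DMSO library while SAG replicate 3 was above every one, as in 5.09% of all tested genes. Scaled by library totals instead, 15 genes were called lower and 5 higher, against 1260 and 2477 of all 12555 genes tested with that scaling. This scaling moved the median of all genes up by 0.13, and the family's median lay 0.17 below it, against 0.18 in the deposited scaling.

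Decreases were called in both subunits. Of the 49 large subunit genes tested, 14 were lower and 1 was higher, with a median log2 fold change of -0.20. Of the 33 small subunit genes, 10 were lower and 1 was higher, with a median of -0.22. The ratio of the summed large to the summed small subunit signal was 1.57, 1.51 and 1.53 in DMSO and 1.503, 1.52 and 1.31 in SAG, the lowest value being that of SAG replicate 3.

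**Figure D1:**
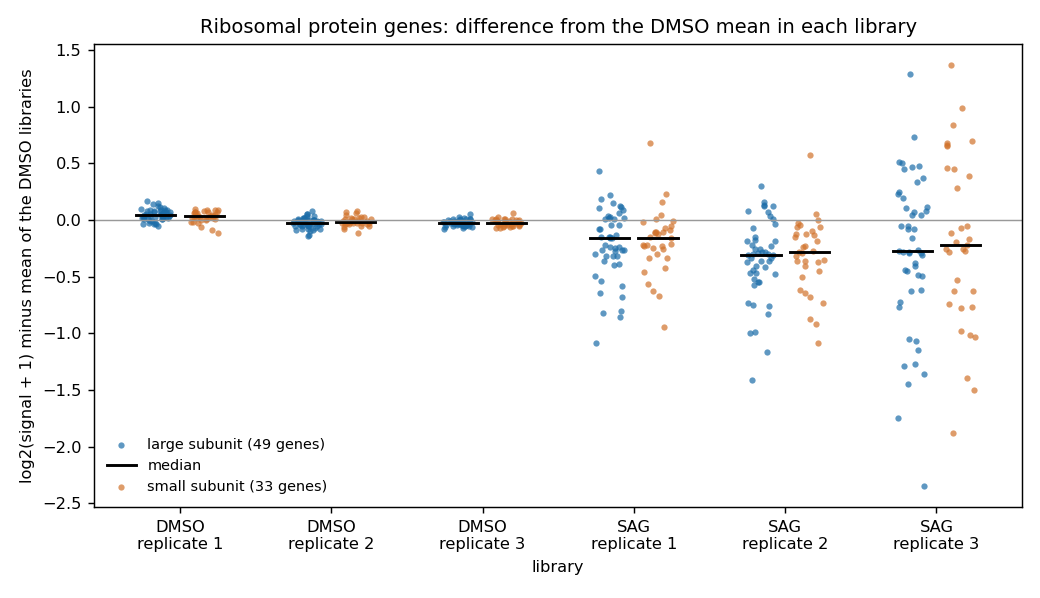
Difference of each tested ribosomal protein gene from the mean of the DMSO libraries, on the log2(signal + 1) scale, in each of the 6 libraries. Points are genes (49 large subunit, 33 small subunit) and bars are medians; the SAG libraries spread to both sides of the DMSO values, and SAG replicate 3 spreads most, with an SD of 0.72 over genes.

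Among large subunit genes, the largest decrease was that of Rpl39, a very small protein that lines the tunnel through which the nascent chain leaves. Its signal was 380, 347 and 347 in DMSO and 168, 133 and 170 in SAG. The groups lay far apart, and the mean was 2.27-fold lower (357.9 ± 18.9 against 157 ± 20.7, SD, n = 3; log2 fold change -1.19, SE 0.12; limma, Benjamini-Hochberg adjusted p = 1.3e-04). On GRCm38 the Rpl39 gene spans 37082520 to 37085402 of chromosome X (minus strand). The 7 other genes of the exit tunnel list (Rpl4, Rpl17, Rpl19, Rpl23a, Rpl26, Rpl31 and Rpl35) were not called in the comparison of all libraries. The list's count of lower genes, 1 of 8, was 3 with a replicate block or without SAG replicate 1. It was 6 without SAG replicate 3, when Rpl4, Rpl17, Rpl23a, Rpl26 and Rpl31 were also called lower. Over all genes 16.6% were called lower with all libraries and 27.0% without SAG replicate 3. With the replicate block 1976 of all 12550 genes were called lower, and without SAG replicate 1 it was 1949 of 12523.

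Rpl30, at the interface with the small subunit, had signals of 350, 292 and 324 in DMSO and 177, 143 and 189 in SAG. All SAG values were below the lowest DMSO value, with a log2 fold change of -0.93 (SE 0.13; limma, Benjamini-Hochberg adjusted p = 8.3e-04). Its reads cannot be separated from those of the processed pseudogene Gm12191 on chromosome 11, whose row differed from that of Rpl30 by at most 0.408% in any library.

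Rpl36a and its paralog Rpl36al encode near-identical proteins beside the site where spent tRNAs leave. Rpl36a had signals of 340, 306 and 325 in DMSO and 186, 163 and 211 in SAG (log2 fold change -0.80, SE 0.11; limma, Benjamini-Hochberg adjusted p = 0.0010). Rpl36al had 155, 131 and 135 in DMSO and 89.2, 78.6 and 56.9 in SAG (log2 fold change -0.92, SE 0.16; limma, Benjamini-Hochberg adjusted p = 0.0030). Both were lower in every SAG library than in every DMSO library.

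Rpl38, whose loss in Tail-short mice alters skeletal patterning, had closely spaced libraries in both groups. Its signal was 217, 219 and 212 in DMSO and 144, 145 and 153 in SAG, a 1.47-fold decrease (log2 fold change -0.55, SE 0.09; limma, Benjamini-Hochberg adjusted p = 0.0020). SAG replicate 3 lay close to the other SAG libraries for this gene. Rpl34 had 230, 236 and 234 in DMSO and 146, 138 and 172 in SAG (log2 fold change -0.62, SE 0.11; limma, Benjamini-Hochberg adjusted p = 0.0027). The row of its pseudogene Rpl34-ps1 on chromosome 6 held the same reads within 1.27%, so these 2 rows are 1 measurement.

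Rpl24, part of a bridge between the subunits and the gene hit in Belly spot and tail mice, had 498, 442 and 471 in DMSO and 323, 279 and 172 in SAG. Its SAG libraries were spread, yet all lay below DMSO (log2 fold change -0.91, SE 0.20; limma, Benjamini-Hochberg adjusted p = 0.0086). The other large subunit genes called lower were Rpl14, Rpl21, Rpl22, Rpl32, Rpl35a, Rpl37 and Rplp1, with log2 fold changes from -0.77 for Rpl32 to -0.27 for Rplp1.

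Among small subunit genes, Rps28, a protein of the head beside the channel by which mRNA leaves, decreased most. Its signal was 376, 339 and 339 in DMSO and 182, 165 and 133 in SAG. The groups did not overlap, and the mean was 2.196-fold lower (352 ± 21.5 against 160 ± 25.0, SD, n = 3; log2 fold change -1.14, SE 0.13; limma, Benjamini-Hochberg adjusted p = 2.8e-04). On GRCm38 the Rps28 gene spans 33819027 to 33824562 of chromosome 17 (minus strand).

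Rps27, which encodes a zinc-finger protein, had signals of 354, 330 and 329 in DMSO and 219, 184 and 119 in SAG (log2 fold change -0.996, SE 0.19; limma, Benjamini-Hochberg adjusted p = 0.0046). All SAG values were lower, the lowest being SAG replicate 3. The retrocopy row Rps27rt on chromosome 9 held the same reads within 0.540%. The paralog Rps27l, a target of p53 in mammalian cells, had 166, 148 and 168 in DMSO and 108, 84.2 and 77.8 in SAG (log2 fold change -0.84, SE 0.13; limma, Benjamini-Hochberg adjusted p = 0.0019).

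Rps29, another zinc-binding protein of the head, had 393, 362 and 351 in DMSO and 231, 222 and 187 in SAG (log2 fold change -0.79, SE 0.11; limma, Benjamini-Hochberg adjusted p = 8.6e-04). Its SAG values also lay entirely below those of DMSO. The other small subunit genes called lower included Rps15a, Rps16, Rps21, Rps24 and Rps25, with log2 fold changes from -0.65 for Rps25 to -0.34 for Rps15a. In the list of 15 head and mRNA channel proteins, Rps25, Rps28 and Rps29 were called lower and none was called higher, with a median of -0.09, beside 16.6% lower and 12.9% higher over all genes. In this list 5 were called lower and 1 higher with length and GC trends removed, when 2082 of all 12083 genes were lower and 1525 higher. Without SAG replicate 3, 7 were lower, beside 27.0% of all genes.

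**Figure D2:**
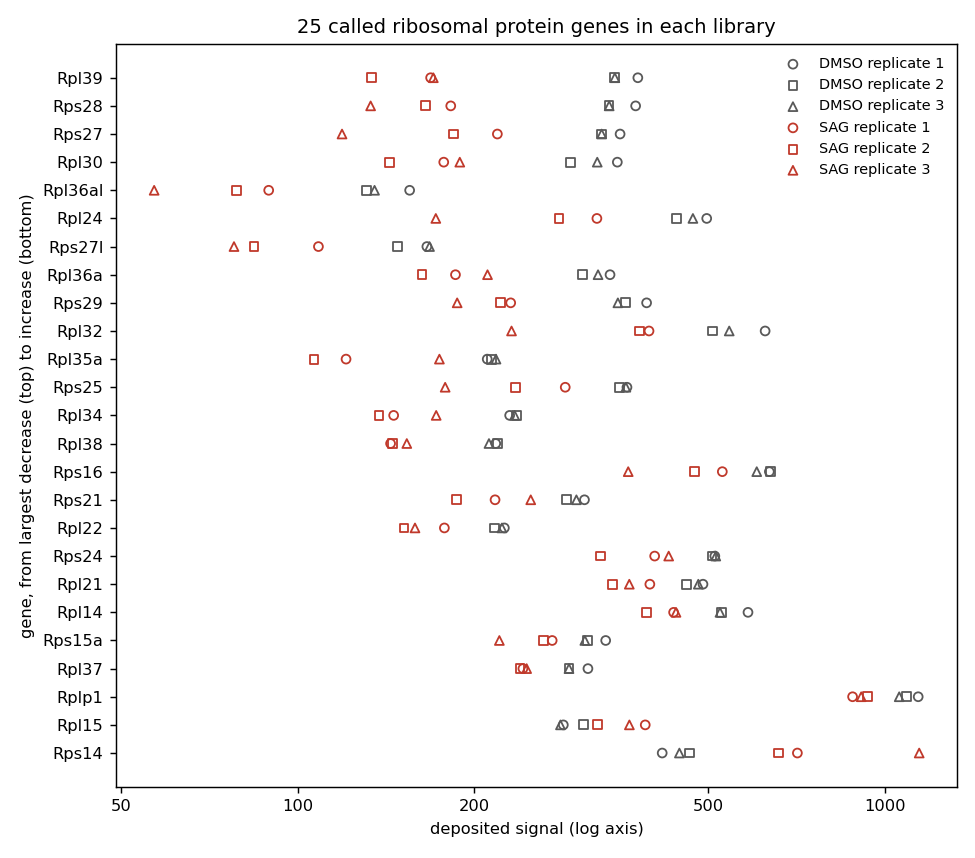
Deposited signal (log axis) of 25 called ribosomal protein genes in each of the 3 DMSO and 3 SAG libraries, ordered by log2 fold change. For each gene all SAG points lie on 1 side of all DMSO points: below for 23 genes, above for Rpl15 and Rps14.

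The 2 genes called higher differed in how firmly. Rps14, a platform protein whose single-copy loss underlies the anaemia of the human 5q- syndrome, had signals of 418, 465 and 447 in DMSO and 710, 660 and 1146 in SAG. Each SAG library was above all DMSO libraries, with SAG replicate 3 far above the other SAG libraries (1.89-fold; log2 fold change 0.87, SE 0.18; limma, Benjamini-Hochberg adjusted p = 0.0074). Without SAG replicate 3 its log2 fold change was 0.63 and the call held. Rpl15, a protein of the large subunit body, had 283, 307 and 280 in DMSO and 391, 324 and 367 in SAG (1.24-fold; log2 fold change 0.31, SE 0.10; limma, Benjamini-Hochberg adjusted p = 0.047). The call of Rpl15 was lost in 9 of 20 alternatives, among them those without any 1 of the DMSO replicates or SAG replicate 1 (limma, Benjamini-Hochberg adjusted p from 0.10 to 0.18).

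The P stalk, which recruits elongation factors, is built on Rplp0 with dimers of Rplp1 and Rplp2 and stands beside Rpl12. Rplp1 had 1141, 1089 and 1059 in DMSO and 882, 936 and 912 in SAG, so that the groups did not overlap (log2 fold change -0.27, SE 0.09; limma, Benjamini-Hochberg adjusted p = 0.049). This call was lost in 12 of 20 alternatives, among them scaling by library total, edgeR and leaving out any 1 DMSO replicate or SAG replicate 1 (adjusted p from 0.0506 to 0.33 over the alternatives other than the stricter threshold). Rplp0 had 1453, 1413 and 1410 in DMSO and 1451, 1506 and 1163 in SAG, with SAG values on both sides of DMSO (log2 fold change -0.06, SE 0.12).

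Rplp2 had 424, 388 and 393 in DMSO and 342, 331 and 472 in SAG (log2 fold change -0.09, SE 0.14). Rpl12 had 674, 629 and 645 in DMSO and 587, 571 and 840 in SAG (log2 fold change 0.01, SE 0.15). In both genes SAG replicates 1 and 2 were below every DMSO library and SAG replicate 3 above. Without SAG replicate 3 both were called lower, with log2 fold changes of -0.26 and -0.17 (limma, Benjamini-Hochberg adjusted p = 0.0023 and 0.031). That fit holds 2 SAG libraries and leaves out the 1 above DMSO, so these calls follow largely from that choice.

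Rpl5 and Rpl11 carry the 5S ribosomal RNA into the large subunit and, outside the ribosome, bind Mdm2. Rpl5 had 562, 563 and 565 in DMSO and 532, 439 and 504 in SAG, all lower than DMSO (log2 fold change -0.20, SE 0.10; limma, Benjamini-Hochberg adjusted p = 0.16). Rpl11 had 513, 472 and 477 in DMSO and 437, 380.0 and 679 in SAG (log2 fold change -0.01, SE 0.19). SAG replicate 3 again stood on the other side of DMSO. Without it both genes were called lower, with log2 fold changes of -0.22 and -0.26 (limma, Benjamini-Hochberg adjusted p = 0.013 and 0.0035). For Rpl11 this leaves out the only SAG library above DMSO.

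Paralogs were compared as the log2 ratio of paralog to main gene within each library. The 5 pairs with both genes past the filter gave no difference that passed the exact two-sided permutation test, which with 3 against 3 libraries cannot go below p = 0.1 and therefore cannot reach 0.05. Rpl22l1, whose transcript the Rpl22 protein represses in mice, had signals of 57.2, 60.9 and 60.3 in DMSO and 57.8, 35.5 and 146 in SAG. Rpl22 had 225, 217 and 223 in DMSO and 178, 152 and 158 in SAG and was called lower (log2 fold change -0.45, SE 0.10; limma, Benjamini-Hochberg adjusted p = 0.0083).

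The log2 ratio of Rpl22l1 to Rpl22 was -1.96, -1.81 and -1.87 in DMSO and -1.60, -2.07 and -0.11 in SAG. The mean difference of 0.62 (exact permutation p = 0.4, n = 3 per group) was 0.04 without SAG replicate 3. Rpl22l1 was called lower without that library, which held its only SAG value above DMSO (log2 fold change -0.38 against 0.17 with it, limma, Benjamini-Hochberg adjusted p = 0.016). The ratio of Rps27l to Rps27 differed by 0.16 (exact permutation p = 0.6, n = 3 per group) and that of Rpl36al to Rpl36a by -0.12 (exact permutation p = 1.0, n = 3 per group). In these pairs both genes were called lower.

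Rpl7 had 592, 628 and 600 in DMSO and 611, 533 and 657 in SAG, with overlapping groups. Rpl7l1, its distant paralog, had 115, 111 and 120 in DMSO and 117, 93.6 and 74.6 in SAG. Their log2 ratio differed by -0.28 (exact permutation p = 0.2, n = 3 per group), and by -0.05 without SAG replicate 3. Rps4x had 645, 671 and 656 in DMSO and 676, 561 and 626 in SAG. Rps4l, annotated as a transcribed processed pseudogene, had 40.3, 46.2 and 44.4 in DMSO and 37.2, 45.3 and 37.2 in SAG, and the ratio differed by -0.04 (exact permutation p = 0.9, n = 3 per group).

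Rpl3l, known from heart and skeletal muscle, and Rpl10l and Rpl39l, known from male germ cells, had 0 to 2 reads in every library. Their main genes were all well covered. Rpl3 had 741, 717 and 702 in DMSO and 601, 520 and 694 in SAG, below DMSO throughout without a call. Rpl10 had 543, 526 and 506 in DMSO and 597, 552 and 565 in SAG, above DMSO throughout without a call.

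**Figure D3:**
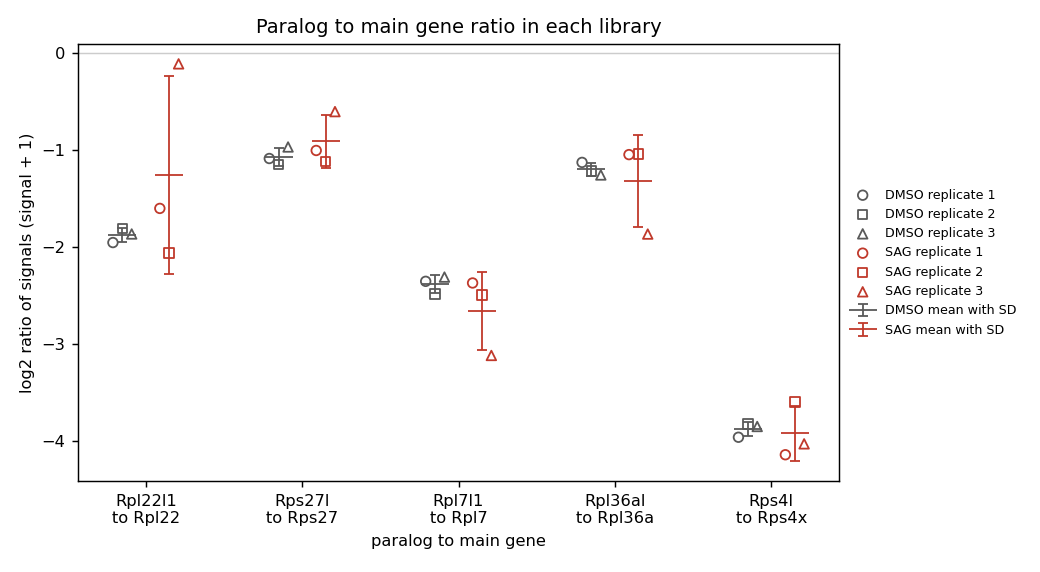
Log2 ratio of the signal (with 1 added to each) of 5 paralogs to their main genes in each library, with mean and SD per group (n = 3). SAG replicate 3 lies outside the DMSO range in all 5 pairs, most in Rpl22l1 to Rpl22 (-0.11 against a DMSO mean of -1.88). SAG replicates 1 and 2 also lie outside that range in Rpl22l1 to Rpl22, Rpl36al to Rpl36a and Rps4l to Rps4x. In Rpl7l1 to Rpl7, SAG replicate 2 does so narrowly.

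With all 6 libraries, the genes called lower were mostly those with a short coding sequence. The 81 tested genes with an annotated coding sequence were ordered by coding length (GENCODE M21, GRCm38) and divided in 3 groups of 27. In the shortest group (75 to 396 bases, which holds Rpl39, Rps28, Rps29, Rpl38 and Rps27) 17 genes were called lower, with a median log2 fold change of -0.46. In the middle group (399 to 564 bases) 6 were called lower, with a median of -0.19. In the longest group (576 to 1257 bases) 1 was called lower, Rpl14, with a median of -0.06.

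Among other tested genes in the same 3 ranges of coding length, the medians were -0.08, -0.05 and 0.00, and 17.1%, 15.01% and 14.9% were called lower. Across the 81 genes, Spearman's rho between coding length and log2 fold change was 0.53, and against the mean of DMSO it was 0.61, 0.52 and 0.37 in SAG replicates 1 to 3, which share that reference. Across 11505 other tested genes it was -0.06. Within DMSO, where no treatment differs, a library set against the mean of the other 2 gave -0.30, 0.31 and 0.02 across the same genes. After the trends of change with transcript length and GC content over all genes were removed, rho with coding length was 0.51. These trends were fitted over all genes and on transcript length, and coding length hardly went with change in the other genes. The step therefore could not take out a length effect confined to the family. The change also went with the mean DMSO signal, with a rho of 0.36 for all SAG libraries, while rho with GC content was 0.10. In SAG replicates 1 to 3 rho was 0.19, 0.30 and 0.36 for signal and 0.12, 0.42 and -0.04 for GC. Genes are not independent replicates, so these coefficients are descriptions.

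Exceptions ran both ways. Rpl41, the shortest with 75 coding bases, had 943, 797 and 815 in DMSO and 647, 627 and 1206 in SAG. It was not called with all libraries and was called lower without SAG replicate 3, its only SAG library above DMSO (log2 fold change -0.42). Rpl24 and Rpl14 were called lower although their coding sequences hold 471 and 651 bases. Without SAG replicate 3 the 3 length groups held 24, 17 and 12 genes called lower, with medians of -0.43, -0.23 and -0.11. Each group holds 27 genes, and 27.0% of all tested genes were called lower in that fit. The shares of other genes in the same length ranges were not computed for it.

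**Figure D4:**
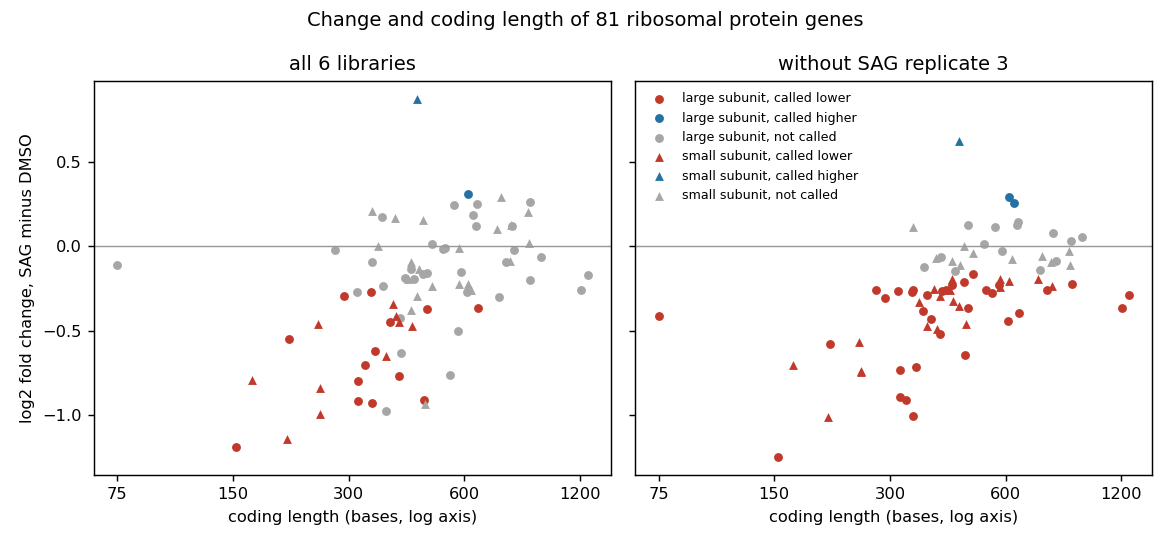
Log2 fold change (SAG minus DMSO) against coding length in bases (log axis) for 81 ribosomal protein genes, with all 6 libraries and without SAG replicate 3. Circles are large and triangles small subunit genes, coloured by call; most genes called lower with all libraries lie at the short end, and the points draw together without SAG replicate 3.

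SAG replicate 3 differed from the other SAG libraries in both directions. The SD over the 82 genes of the difference from the DMSO mean was 0.30, 0.34 and 0.72 (log2) in SAG replicates 1 to 3, and 0.41, 0.48 and 0.60 over 738 other genes with a mean signal of 200 to 1500. Against the mean of SAG replicates 1 and 2, SAG replicate 3 was at least 1.5-fold lower in 11 of the 82 genes (13.4%) and at least 1.5-fold higher in 14 (17.1%). Among the 738 other genes these shares were 7.18% and 7.72%.

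Among the members furthest below were Rpl31, with 411 and 387 in SAG replicates 1 and 2 and 94.9 in SAG replicate 3, and Rpl17, with 398, 333 and 131. The furthest above were Rpl22l1, Rps3a1, with 676, 575 and 1314, and Rps6, the substrate of S6 kinase, with 435, 397 and 856. The choice of these 5 followed from their values. Their DMSO libraries lay closer together: Rpl31 had 490.3, 483 and 489, and Rps6 had 436, 437 and 423. The Rn45s share and the fetal Leydig marker sum given above were also highest in SAG replicate 3; their part in this spread was not tested.

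Without SAG replicate 3, 53 of the 82 genes were called lower and 3 higher (limma, Benjamini-Hochberg adjusted p under 0.05; over all 12512 genes then tested, 27.0% and 19.7%). All 24 genes called lower and both called higher with 6 libraries were among them. The lower genes were 33 of 49 in the large and 20 of 33 in the small subunit, and the median was -0.25. Rpl13 was the additional gene called higher. With all libraries in view, SAG replicates 1 and 2 lay below every DMSO library in 57 of the 82 genes, against 35.2% of all tested genes.

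Levels per kilobase of transcript spanned a wide range within the family. The highest in DMSO were those of Rplp1 (2197 per kilobase), Rpl41 (1566) and Rps12 (1354), and in SAG those of Rplp1 (1824), Rps12 (1570) and Rpl41 (1519). Rps12 had a signal of 732, 740 and 718 in DMSO and 671, 719 and 1149 in SAG, the last being SAG replicate 3. The lowest of the tested genes were Rps4l (50.4 per kilobase in DMSO), Rpl7l1 (58.9) and Rps15a (62.0). The value of Rps15a rests on an annotated principal transcript of 5130 bases for a coding sequence of 390, and its signal was 335, 311 and 308 in DMSO and 271, 262 and 221 in SAG.

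The other genes that serve the ribosome were read from lists beside the family. Of 43 ribosome biogenesis genes tested, 18 were called lower and 0 higher, with a median log2 fold change of -0.32. Over all genes 16.6% were called lower and 12.9% higher. An unadjusted limma p under 0.05 was found for 24 of the 43 and for 5298 of all 12550 genes. The smallest p-values were those of Ddx21, an RNA helicase of rRNA transcription and processing (-0.82), Wdr43, a factor of the small subunit processome (-0.72), and Nhp2, a core protein of the box H/ACA particles (-0.65). The count of lower genes in this list was 9 with scaling by library total, where the median was -0.18. It was 12 with limma without trend and 7 at an adjusted p of 0.01. It was 7 without DMSO replicate 1 or 3 and 9 without DMSO replicate 2. Without SAG replicate 3 it was 28, beside 27.0% of all genes. Ddx21 had signals of 217, 201 and 218 in DMSO and 135, 104 and 121 in SAG.

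Of 17 other genes whose mRNAs are known for a TOP motif, 4 were lower (Pabpc1, the poly(A)-binding protein, by a log2 fold change of -0.60, Naca by -0.65, Btf3 by -0.39 and Eef1b2 by -0.41) and Eif3f was higher (0.28). The median was -0.18, and the shares over all genes were again 16.6% lower and 12.9% higher. The count of lower genes was 2 with scaling by library total, at an adjusted p of 0.01 or without any 1 DMSO replicate. It was 7 with length and GC trends removed and 9 without SAG replicate 3, where 27.0% of all genes were called lower. Of 8 carriers and importers of ribosomal proteins, the importins Ipo5 (-0.53) and Ipo4 (-0.38) were lower and none was higher; 1 was lower with library-total scaling, at an adjusted p of 0.01 or without any 1 DMSO replicate, and 5 were lower without SAG replicate 3. Fau, which encodes a ribosomal protein fused to a ubiquitin-like protein, was not called.

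In the mTOR and Larp1 list of 13 genes, Deptor, an inhibitor that binds mTOR, rose from 8.28, 6.19 and 8.23 in DMSO to 24.7, 31.5 and 24.02 in SAG (log2 fold change 1.69, SE 0.17; limma, Benjamini-Hochberg adjusted p = 1.4e-04). Larp4 (-0.62) and Rps6kb1, which encodes an S6 kinase (-0.51), were lower. These 2 of 13 lower and 1 of 13 higher stood beside 16.6% and 12.9% of all genes. Without SAG replicate 3 they were 3 and 3, beside 27.0% and 19.7%. Larp1 had 283, 288 and 280 in DMSO and 221.1, 221 and 263 in SAG and was not called (log2 fold change -0.28, SE 0.10; limma, Benjamini-Hochberg adjusted p = 0.066), nor was Mtor (-0.06). Of 6 tested rows of ribosomal protein pseudogenes and retrocopies 3 were lower, and of these Rps27rt and Rpl34-ps1 repeat the reads of their parent genes. Rpl26 likewise shared every read with the row of the pseudogene Gm15772 on chromosome 5 and was not called.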

How the data were processed

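RNA-seq was done on 6 libraries of W-EGFP cells, 3 with DMSO and 3 with SAG. The labels' protocols name the RNeasy Micro kit for RNA and NEBNext Ultra II Directional for libraries. The genome was GRCm38 (mm10), and the tools were STAR, edgeR (given as 2.2.1), featureCounts 2.0.0 and Trim Galore 0.6.4, per the submitters' processing notes. How reads that map to several places or to either strand were counted is not given in the sources used here, and ribosomal protein genes have many near-identical pseudogenes. The authors deposited 1 table of normalized signal, called CPM in its name. Divided by the signal of 1 read, 100% of the values in every library came out whole (tolerance 0.01), so reads could be recovered; TMM factors from these reads equalled the deposited scaling.

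Of 24505 rows, 92 spike-in rows, with up to 0.0157% of the reads of a library, were left out. Log2(signal + 1) was tested with limma 3.58.1 (eBayes with trend) in R 4.3.3 for the 12550 genes whose mean signal reached 1. Group was the only term, and the threshold was 0.05 for the Benjamini-Hochberg adjusted p. Fold changes on this scale understate those of low genes. Paralog ratios were tested with exact two-sided permutations (scipy 1.17.1). Coordinates and lengths (median over principal transcripts) come from GENCODE M21, and sequences from RefSeq. Some members enter the counts but are not reported here by name. The members and lists were chosen with earlier results of these data known. Values in each library are given for the 10 called genes with the smallest p in each direction, stalk and 5S particle proteins, paralog pairs and the 3 highest and 3 lowest levels per kilobase, and for further members, such as Rpl24, chosen with their values known; other lists by counts and up to 3 called genes, more where few were called. Intervals are not given for reads, whose PCR copies are not independent molecules. Alternatives were other pseudocounts, filters, scalings and thresholds, DMSO reads thinned to the SAG depth, and transcript length and GC trends removed. Others were limma without trend or robust, edgeR 4.0.16 and DESeq2 1.42.0 on the recovered reads, a replicate block and each library left out.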

Additional observations from a re-analysis of the deposited data

Results flagged for a closer look

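The 92 rows for synthetic spike-in RNAs, which enter no comparison, held 0 reads in each DMSO library, 111 in SAG replicate 1, 54 in SAG replicate 2 and 1205 in SAG replicate 3. These rows stood out because reads appear there in data outside the comparison, above the level of the control libraries.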

How the results depend on the processing

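The family's median log2 fold change was below 0 in all 20 alternatives, while the number of called genes depended on the libraries. Limma without trend, robust limma, the replicate block and the stricter threshold and filter could not change this median. The median of all genes was also below 0, except with DESeq2, edgeR and scaling by library total. The family's median minus that of all genes ran from -0.22 to -0.15. In 11 genes called lower (Rpl24, Rpl30, Rpl34, Rpl36a, Rpl36al, Rpl38, Rpl39, Rps27, Rps27l, Rps28 and Rps29) and in Rps14, called higher, the call held in all 20. The count of lower genes, 24, became 15 with scaling by library total and 12 at an adjusted p of 0.01, and ranged from 11 (without DMSO replicate 3) to 53 (without SAG replicate 3) with 1 library left out, with 12 without DMSO replicate 1 and 15 without DMSO replicate 2. The count of higher genes, 2, became 5 with scaling by library total and 1 with no filter, with limma without trend, with robust limma, with a replicate block and at an adjusted p of 0.01; it ranged from 1 to 3 with 1 library left out. The median log2 fold change, -0.21, was -0.069 with scaling by library total, which moved all genes up, and -0.19 to -0.25 with 1 library left out. Over all genes 3709 were called; 1837 were at an adjusted p of 0.01, and from 1987 (without DMSO replicate 3) to 5836 (without SAG replicate 3) with 1 library left out. Without SAG replicate 3, the fitted change turned from positive to negative in 9 members, of which 5 were then called lower (Rpl12, -0.17; Rpl22l1, -0.38; Rps3, -0.19; Rps3a1, -0.23; Rps20, -0.33), and from negative to positive in 3 without a call. For Rpl12 and Rpl22l1, the changes without SAG replicate 2 were 0.11 and 0.62. The differences in paralog ratio moved between 0.04 and 1.02 for Rpl22l1, 0.01 and 0.26 for Rps27l, -0.42 and -0.05 for Rpl7l1, -0.26 and 0.16 for Rpl36al and -0.21 and 0.07 for Rps4l with 1 library left out. The cause of these changes was not tested. Deviations of libraries with the same number had correlations of -0.02, 0.03 and 0.00, and those with different numbers -0.03 to 0.04. The DMSO libraries deviated little from each other, so this check cannot exclude a pairing. With the replicate block 26 genes were called lower, and the mean difference in each paralog ratio is the same by construction. The paralogs Rpl3l, Rpl10l and Rpl39l, with 0 to 2 reads per library, were not compared.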
